A study of Mus musculus with 2 samples.

Results

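Fgf21 and 9 genes of the integrated stress response, namely Asns, Atf4, Atf5, Trib3, Ddit3, Chac1, Psat1, Phgdh and Sesn2, were followed in precancerous mouse liver with and without the histone demethylase KDM3A. Members were chosen by name, with earlier results of these data known. Every probe set that the platform annotation gives to 1 of these genes alone was taken. This gave 20 of the 45101 probe sets on the array, and all 10 genes were among the 11693 genes measured. The liver came from mice with a transgene of Pik3ca, which encodes the catalytic subunit of phosphoinositide 3-kinase, directed to hepatocytes, kept on regular chow under a cycle of 12 h light and dark. They were either wild type for Kdm3a (labelled Pik3caTg;Kdm3aWT) or knockout for it (Pik3caTg;Kdm3aKO), so both groups carry the transgene, and liver without it was not analysed here. The promoter that drives the transgene, the kind of Kdm3a allele, age, sex and whether RNA of several animals was pooled are not stated in the labels. Each genotype was represented by 1 Affymetrix array. With a single array a group, differences below could not be tested or checked between animals, and they are differences between these arrays.

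The integrated stress response begins with kinases that sense amino acid shortage, endoplasmic reticulum stress, viral RNA or haem and mitochondrial stress and phosphorylate the translation factor eIF2-alpha. Most translation then slows, while that of ATF4, a basic leucine zipper transcription factor, increases, so the amount of ATF4 protein need not follow its mRNA. ATF4 binds C/EBP-ATF response elements, often as a heterodimer with a C/EBP protein, and raises genes of amino acid synthesis and uptake, feedback regulators and, in liver, the hormone gene Fgf21, which is also raised by the fatty acid receptor PPAR-alpha in fasting.

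The values are signals on a linear scale. A log2 ratio sets the knockout array over the wild-type array, so a negative value means less signal in the knockout. Signals under 46.5 (the 40th percentile of both arrays together) were set to that floor, and a fold that rests on the floor is given as a lower limit with "at least". Probe sets with a mean signal under 73.7, the median, were dropped as dim, and a gene took the value of its brightest remaining probe set. A gene is called down or up here where it differed by 2-fold or more. Probe sets of the same gene differed in log2 ratio with an SD of 0.446 over 4958 genes, which covers error within the arrays and none between animals. In bulk tissue, fewer cells of a type and less RNA per cell cannot be told apart.

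The targeted gene Kdm3a had a signal of 719.9 in its wild-type state and 61.6 in its knockout, by 1 probe set whose place relative to the deleted part is not known here. All 13 measured hepatocyte markers had a positive ratio, 12 after quantile normalization and 11 after loess, and their summed signal was 446816 with Kdm3a present and 630042 in its knockout. Several lists of markers of other cells had less signal in the knockout array. The stellate cell and fibroblast list had 9 of 12 markers down under all scalings run, with summed signals of 41653 and 19025. All 6 measured cholangiocyte markers, of 10 listed, were down, 5 with the poly-A controls as the scale, with sums of 5992 and 880.2. Krt19, Krt7 and Sox9 had knockout signals of 63.4, 72.4 and 73.1, under the filter cut of 73.7. They passed it through their wild-type signal and had to be lower. The kept probe sets of Tspan8 ranged from -2.96 to 0.69 and those of Epcam from -1.75 to -0.08. The macrophage list had 7 of 15 markers down and 3 up, with sums of 65518 and 38746. The 3 up were Timd4, Marco and Cd163. Their wild-type signals were below the floor, so they passed the filter through the knockout array and had to differ. Endothelial markers were down in 1 of 10 cases, T and NK cell markers in 3 of 6 and neutrophil markers in 2 of 3. Of the B and plasma cell markers, 2 of 4 were up. Thy1 and Nkg7 of the T and NK cell list, and Des of the stellate cell list, also had knockout signals under the filter cut. These genes had to be lower too. Over all 11693 genes, 8.96% were down and 3.83% up, so the endothelial share past 2-fold lower was near that of all genes. By sign, 9 of 10 endothelial markers had a negative ratio, or 7 with poly-A controls as the scale, against 52.2% of all genes. The median endothelial ratio was -0.28, against -0.02 for all genes. None of the markers above was listed at 0, and their part in the differences of the 10 genes was not tested. Of 2 measured pancreatic acinar markers, 1 was down and 1 was up, the latter with a wild-type signal below the floor. The ratio of the 3-prime to the 5-prime control probe set, a measure of RNA integrity, was 1.85 and 1.99 for beta-actin and 0.70 and 0.65 for Gapdh in the wild-type and knockout arrays.

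Promoter windows were matched in RefSeq (GRCm38.p6) for all 10 genes and searched on both strands for the core of the C/EBP-ATF response element, TGATGNAA. A window runs from 250 bases before the annotated start to 50 after it. The core was present in 3.97% of all 32851 windows, or for 4.51% of all 27025 genes with a window. Of the 9490 measured genes with a window, 2.79% held it. Among the 10 genes it was found for 4, Fgf21, Asns, Chac1 and Trib3. The 10 genes include targets of ATF4, so this count beside these shares is no test. The 4 windows are shown because they carry the element to which ATF4 binds. Their genes also differed in the arrays from 11.6-fold lower to near equal. Capitals mark the match, which reads TTNCATCA where it lies on the opposite strand. The first 3 are the 250 bases before the start of Fgf21 (chr7:45615491-45615740, minus strand), Asns (chr6:7693210-7693459, minus strand) and Chac1 (chr2:119350992-119351241, plus strand). The last is a stretch of 30 bases just downstream of the start of Trib3 (chr2:152344028-152344057, minus strand).
Fgf21: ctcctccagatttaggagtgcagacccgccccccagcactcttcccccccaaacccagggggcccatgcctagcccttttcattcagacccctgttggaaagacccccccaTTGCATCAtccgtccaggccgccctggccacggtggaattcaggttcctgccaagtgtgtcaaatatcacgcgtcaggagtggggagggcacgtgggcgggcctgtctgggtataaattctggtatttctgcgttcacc
Asns: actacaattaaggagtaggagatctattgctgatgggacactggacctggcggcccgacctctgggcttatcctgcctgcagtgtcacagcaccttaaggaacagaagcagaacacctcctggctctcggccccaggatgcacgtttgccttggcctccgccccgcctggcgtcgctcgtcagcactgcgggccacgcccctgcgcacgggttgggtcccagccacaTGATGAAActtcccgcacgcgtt
Chac1: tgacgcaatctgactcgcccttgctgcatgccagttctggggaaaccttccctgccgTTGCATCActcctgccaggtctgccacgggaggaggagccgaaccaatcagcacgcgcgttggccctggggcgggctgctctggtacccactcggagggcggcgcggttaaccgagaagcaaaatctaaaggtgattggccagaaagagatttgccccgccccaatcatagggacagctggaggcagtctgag
Trib3: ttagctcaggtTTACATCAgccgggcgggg

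The match began 139 bases before the start in Fgf21, 193 before it in Chac1 and 23 before it in Asns, and at base 15 after it in Trib3. Fgf21 and Chac1 held the same 8 bases in the same orientation. The longer form TGATGNAAT, which contains the core, was present in Fgf21 alone of the 10 genes. It was present in 0.965% of all windows, or for 1.08% of all genes with a window. The letters were not found in these windows of Atf4, Atf5, Ddit3, Psat1, Phgdh and Sesn2. A match is a string of letters and not a measured binding site.

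In the knockout array 6 of the 10 genes were down by 2-fold or more, 0 were up and 4 differed by less. The background was 8.96% of all 11693 genes down and 3.83% up. The 10 genes were chosen with earlier results of these data known, so setting these shares side by side is no test. Among the 6, Psat1 had to differ, since it passed the filter through its wild-type signal alone. The lower genes were the hormone gene Fgf21, the biosynthetic enzymes Asns, Psat1 and Phgdh, the transcription factor Atf5 and the feedback regulator Trib3. Atf4 itself, the stress regulators Ddit3 and Sesn2 and the glutathione-degrading enzyme Chac1 were within 2-fold. The median log2 ratio of the 10 genes was -1.19, against -0.02 for all genes. The brightest probe sets of all 10 had negative ratios, as did 52.2% of all genes, and Chac1 turned to 0.03 when poly-A controls set the scale.

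**Figure D1:**
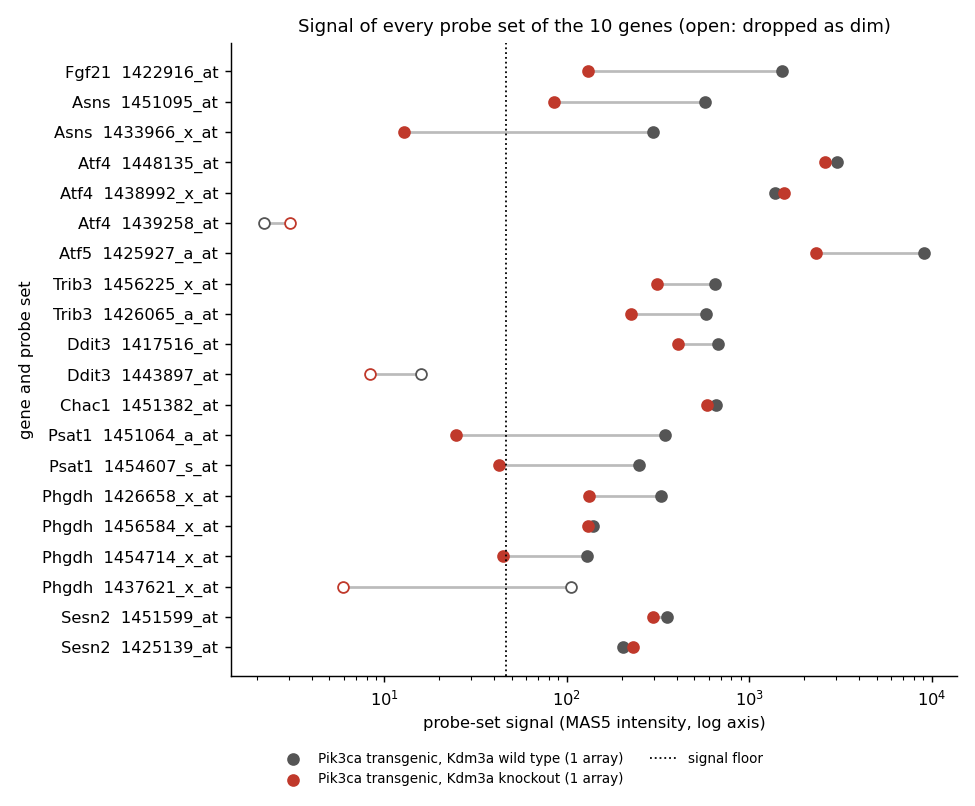
Signal of each of the 20 probe sets (log horizontal axis, MAS5 intensity) in the wild-type array (grey) and the knockout array (red), 1 array each, with the floor of 46.5 as a dotted line and the 3 probe sets dropped as dim drawn open. The Fgf21, Asns, Atf5 and Psat1 pairs are far apart, while the Atf4, Chac1 and Sesn2 pairs nearly touch.

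Fgf21 encodes a hormone that the liver secretes in fasting, protein shortage and mitochondrial stress. Its signal was 1521 with Kdm3a present and 130.8 in its knockout, so 8.60% of the signal was left, an 11.6-fold difference. Both values were above the floor, and the log2 ratio of -3.54 was the 18th lowest of all 11693 genes. It was read by 1 probe set, so no second probe set bears on it. Under 12 alternative settings the ratio ranged from -3.67 to -3.35. Only the scalings moved it. With 1 probe set above all floors used, the other floors, filters and probe-set rules had to leave it at -3.54.

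Asns, asparagine synthetase, makes asparagine from aspartate and glutamine and is a widely used readout of ATF4. Its brighter probe set had signals of 575.8 and 85.1 in the wild-type and knockout arrays, a log2 ratio of -2.76. Its other probe set had 295.7 and 12.8, the second value below the floor, which makes it at least 6.36-fold lower. That set passed the filter through its wild-type signal, so with this floor it had to differ, and its size is a limit only. By the brighter one Asns was 6.77-fold lower, with both signals above the floor.

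Psat1 and Phgdh catalyse the first steps of serine synthesis from a glycolytic intermediate. PHGDH oxidises 3-phosphoglycerate, and PSAT1 transfers an amino group to the product. Psat1 had signals of 346.6 and 24.9 by its brighter probe set and 248.4 and 42.8 by the other, and both knockout values were below the floor. It was at least 7.45-fold lower by the first and at least 5.34-fold lower by the second. Both probe sets passed the filter through their wild-type signal, so with this floor they had to differ.

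The Phgdh probe sets disagreed. The brightest had signals of 327.9 with Kdm3a present and 131.7 in its knockout, 2.49-fold lower. The next had 139.6 and 130.6, a log2 ratio of -0.10. A further one had 129.2 and 44.7, at least 2.78-fold lower, and passed the filter through its wild-type signal. The fourth was dropped as dim, with signals of 106.1 and 5.92. The other 2 probe sets that list Phgdh also name another locus, Gm8096 or Gm6756, and had 28.9 and 2.24 and 95.0 and 14.2. The first of this pair was under the floor on both arrays and gives no ratio. Of the 4 probe sets that name Phgdh alone, the brightest is thus the only one with both signals above the floor and a difference past 2-fold. The mean of its kept probe sets was -0.96, just within 2-fold.

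Atf5 encodes a basic leucine zipper factor related to ATF4, itself controlled by translation in stress and known for its part in the mitochondrial unfolded protein response. Its signal was 9130 with Kdm3a present and 2326 in its knockout, 3.93-fold lower, by 1 probe set. The log2 ratio of -1.97 was the 190th lowest of all genes. RefSeq places Atf5 and Fgf21 on chromosome 7 with 74 annotated genes between them. Among the 33 of these that were measured, 2 were down and 2 were up, and their median ratio was 0.12. The lowest of them was the glycogen synthase Gys1 (at least 2.94-fold lower) and the highest Pth2 (1.43). Gys1 passed the filter through its wild-type signal, so with this floor it had to differ.

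Trib3 encodes a pseudokinase that ATF4 raises and that restrains ATF4 and the kinase AKT. Its probe sets had signals of 648.6 and 311.3, and of 577.7 and 224.3, in the wild-type and knockout arrays. They were 2.08-fold and 2.58-fold lower. The value of the brighter set, with a log2 ratio of -1.06, lay at the edge of the 2-fold rule. It came within 2-fold after quantile normalization, loess or poly-A scaling.

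Atf4, the central factor, differed little. Its probe sets had signals of 3043 and 2591 and of 1377 and 1551, log2 ratios of -0.23 and 0.17. The remaining set was dim on both arrays, at 2.19 and 3.04. The kept sets of Atf4 thus lay on both sides of equality, each within 1 SD of the spread between probe sets.

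Ddit3 encodes CHOP, a factor raised in prolonged stress and known for promoting cell death. Its signal was 678.0 with Kdm3a present and 407.6 in its knockout, 1.66-fold lower. A second probe set was dim on both arrays, at 15.8 and 8.33. In the order of ratios Ddit3 stood between Trib3 and Sesn2, and the gap to Trib3 was smaller than the SD between probe sets.

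Chac1, a cyclotransferase that breaks down glutathione, had signals of 655.1 and 588.3, a log2 ratio of -0.16. Sesn2, sestrin 2, a leucine sensor that restrains mTORC1, had 355.2 and 295.6 by its brighter probe set and 202.7 and 230.3 by the other. Its log2 ratios of -0.27 and 0.18 again lay on both sides of equality. Chac1 stood at 89.8% of its wild-type signal, against 8.60% for Fgf21. Both hold the same core element, and Fgf21 alone holds the longer form. Any part of the element in these values was not tested.

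**Figure D2:**
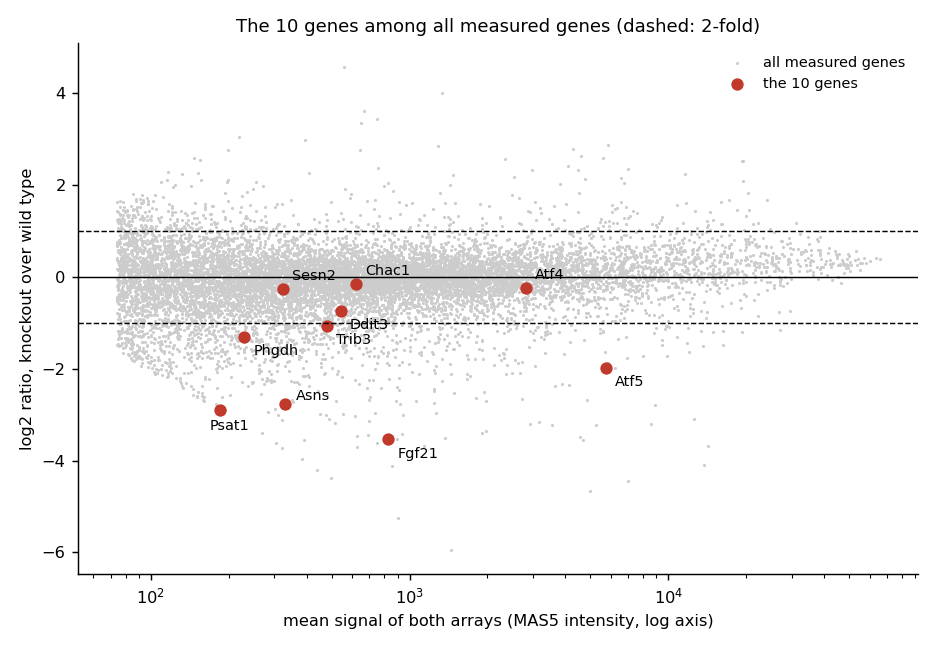
Log2 ratio of knockout over wild type (vertical axis) against the mean signal of both arrays (log horizontal axis) for all 11693 measured genes (grey) and the 10 genes (red), with dashed lines at 2-fold. Fgf21, Asns, Psat1 and Atf5 lie at the lower edge of the cloud, and Atf4, Chac1 and Sesn2 lie within it.

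The order of the ratios from lowest was Fgf21, Psat1, Asns, Atf5, Phgdh, Trib3, Ddit3, Sesn2, Atf4 and Chac1. Psat1 is a bound, so its place beside Fgf21 and Asns is not settled, and it stood at -3.80 without a floor. Sesn2, Atf4 and Chac1 differed from one another by less than the SD between probe sets. At 3-fold, 4 of the 10 genes were lower, Fgf21, Asns, Atf5 and Psat1, against 3.5% of all genes; 0 were higher, against 0.872%. At 1.5-fold, 7 were lower, with Ddit3 added, against 17.4% of all genes; 0 were higher, against 11.1%.

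Genes with a ratio nearest to that of Fgf21, by the absolute difference of log2 ratios over these 2 arrays alone, were Kdm3a (-3.55), Serpinb6b (-3.53), Col3a1 (-3.56), Lgals3 (-3.48) and Calml4 (-3.47). Col3a1 encodes a fibrillar collagen of matrix-producing cells, Lgals3 a galectin, and Kdm3a is the targeted gene. With 2 arrays, any gene of equal ratio has the same pattern.

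The other genes of the pathway were taken from 13 lists of 181 genes in all, of which 165 were measured. Of these, 12 were down and 7 up in the knockout array, or 7.27% down, a share near the 8.96% of all genes. Their median was -0.03 against -0.02 for all genes. With poly-A controls as the scale it was 0.16, and the median of all genes moved up by 0.19; with hybridisation controls that median moved by -0.14.

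Upstream of ATF4, 11 genes of eIF2-alpha kinases, phosphatase subunits and regulators were measured. By their brightest probe set all lay within 2-fold, or 10 of them when hybridisation controls set the scale. The median ratio was -0.19. Other kept probe sets of Dele1 (-1.78) and Gcn1 (1.31) were past 2-fold. Eif2ak2, the kinase PKR that is activated by double-stranded RNA, had signals of 474.0 and 258.6 (-0.87), though its 3 probe sets ranged from -0.87 to 0.63. Eif2ak4, the amino acid sensor GCN2, had 267.7 and 162.7 (-0.72). At the other end stood Eif2ak1, the haem-regulated kinase (0.40), and Eif2b5, a subunit of the exchange factor eIF2B (0.34).

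Of 14 measured partners and targets of ATF4, 2 were down and 0 up under all scalings run. Atf3, a stress-induced factor of the same family, had signals of 501.5 with Kdm3a present and 65.2 in its knockout, 7.69-fold lower. With a knockout signal under the filter cut of 73.7, Atf3 had to be lower, though not by this much. Nupr1, a small stress-induced chromatin protein, had 355.2 and 16.1, at least 7.64-fold lower. Both of its probe sets passed the filter through the wild-type signal and had to differ, and the gene was not measured with the filter at the 70th percentile or without cross-matching probe sets, where 1 of the list was down. Both hold the core element in their promoter window. The highest were Bbc3, which encodes the cell death protein PUMA (0.69), and Herpud1, a factor of endoplasmic reticulum degradation (0.47). The list's median was -0.30.

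Serine and one-carbon enzymes were split. Of 9 measured, 3 were down and 1 was up, and the median was 0.04, or -0.09 and -0.05 with hybridisation controls or array medians as the scale. The mitochondrial folate enzyme Mthfd2 had signals of 233.3 and 61.6, 3.79-fold lower. The mitochondrial formyltetrahydrofolate dehydrogenase Aldh1l2 had 107.1 and 48.0, 2.23-fold lower. Both knockout signals were under the filter cut of 73.7, so both genes passed it through their wild-type signal. With this filter both had to be lower, Aldh1l2 by 2-fold or more. Psph, which completes serine synthesis after Phgdh and Psat1, was named after its value was seen; it had 708.1 and 342.9, 2.07-fold lower. Aldh1l1, the cytosolic folate enzyme abundant in liver, was 2.19-fold higher, with 8919 with Kdm3a present and 19499 in its knockout, and Mthfd1 stood at 0.67. The 2 kept probe sets of Aldh1l1 had log2 ratios of 1.13 and 0.33, the second within 2-fold. With the filter at the 70th percentile or the floor at the 60th, 1 of the list was down. Under poly-A scaling Mthfd2 alone was down, and after quantile normalization or loess Psph and Aldh1l1 came within 2-fold, as Aldh1l1 did with hybridisation controls as the scale.

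Among 8 measured enzymes of proline, alanine, cysteine and glutamate metabolism, 1 was down and 2 were up, and the median was 0.19. Aldh18a1, which opens proline synthesis, had signals of 311.6 and 91.1, 3.42-fold lower. This call was lost, leaving 0 of the list down, without cross-matching probe sets and with the filter at the 70th percentile. Gclc, the catalytic subunit of glutathione synthesis, was next at -0.97 and passed 2-fold after median centring, quantile normalization, loess and scaling to hybridisation controls. Got1, the cytosolic aspartate aminotransferase, was 3.10-fold higher (3205 and 9949), and Cth, cystathionine gamma-lyase, was 2.35-fold higher (8869 and 20818).

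Of 9 measured amino acid transporters, 7 had a negative ratio, 1 was down and 1 up, and the median of -0.60 stayed negative under all scalings run. The cystine carrier Slc7a11 was at least 7.73-fold lower, with signals of 359.5 and 24.2. It too passed the filter through its wild-type signal and had to differ, and with the filter at the 70th percentile 0 of the list were down. Slc38a1, a glutamine carrier, stood at -0.75. The amino acid carrier Slc43a1 was 2.38-fold higher, with 143.4 and 340.8, and Slc38a2, a neutral amino acid carrier that is an ATF4 target, stood at 0.22.

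**Figure D3:**
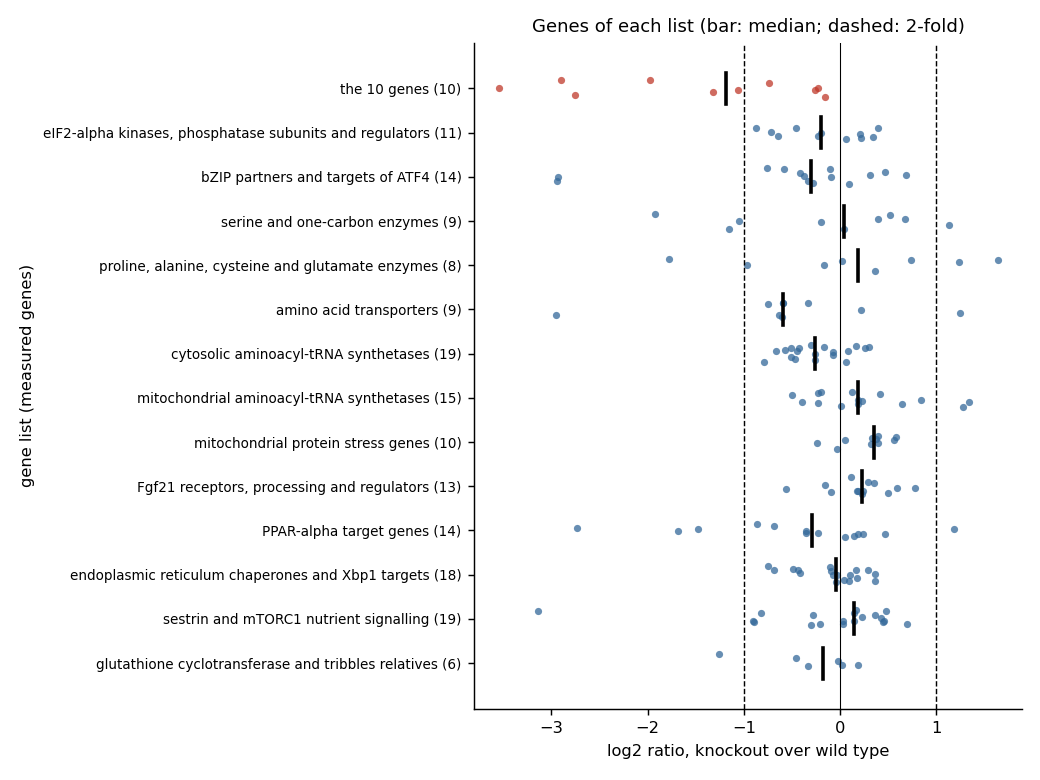
Log2 ratio of knockout over wild type for each measured gene of the 10 genes (red) and of the 13 pathway lists (blue), with the number of measured genes in brackets, a black bar at each median and dashed lines at 2-fold. The 10 genes have a median of -1.19, while the medians of the other lists lie between -0.60 and 0.35.

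The cytosolic aminoacyl-tRNA synthetases, many of them ATF4 targets, load amino acids onto tRNAs. All 19 measured lay within 2-fold under every scaling run, with a median of -0.26. The lowest were Wars (-0.79), whose 4 probe sets ranged from -0.79 to 0.70, and Vars (-0.67), and the highest were Tars (0.30) and Farsa (0.25). Of the 15 measured mitochondrial synthetases, 0 were down and 2 up, or 3 under poly-A scaling, and the median was 0.18. Aars2 was 2.53-fold higher, and the probe sets of Vars2 (1.28) went both ways. Tars2 (-0.50) and Ears2 (-0.39) were the lowest.

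Atf5 is known to act on mitochondrial chaperones and proteases. Of 10 such genes, 8 had a positive ratio and all lay within 2-fold by their brightest probe set, with a median of 0.35. Other kept probe sets of Clpx (1.71) and Afg3l2 (1.02) were past 2-fold. The chaperonin Hspd1 (0.58) and the co-chaperone Dnaja3 (0.56) were highest, and the proteases Yme1l1 (-0.24) and Lonp1 (-0.03) lowest. The median stayed positive under all scalings run.

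Endoplasmic reticulum chaperones and XBP1 targets belong to the other arms of the unfolded protein response. All 18 measured lay within 2-fold under every scaling run, and their median of -0.04 became 0.14 under poly-A scaling. Creld2 (-0.75) and Manf (-0.68) were lowest, and Xbp1 (0.36) and Pdia6 (0.36) highest. Of the 10 genes 6 were past 2-fold, and this difference between the lists was not tested.

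For the Fgf21 axis, 13 receptors and regulators were measured and all lay within 2-fold by their brightest probe set, with a median of 0.23. Other kept probe sets of Ppargc1a (up to 1.48) and Fgfr4 (up to 1.29) were past 2-fold. Mlxipl, which encodes the carbohydrate-sensing factor ChREBP (0.77), and the coactivator Ppargc1a (0.59) were highest, and the receptors Fgfr3 (-0.56) and Fgfr2 (-0.16) lowest. Ppara itself, named after its value was seen, had signals of 4175 and 5099 (0.29). Of 14 measured PPAR-alpha target genes, 3 were down and 1 up, or 4 down after quantile normalization or loess, and the median was -0.29. Pdk4, a kinase that restrains glucose oxidation, had 2155 and 323.0, 6.67-fold lower. Acot2, a mitochondrial acyl-CoA thioesterase, was 3.21-fold lower, while Fgf1, a growth factor of the same family as Fgf21, was 2.26-fold higher and Cyp4a14, a fatty acid hydroxylase, stood at 0.46.

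Around Sesn2, 19 genes of sestrin and mTORC1 nutrient signalling were measured, and 1 was down, or 3 when hybridisation controls set the scale. Rragd, a GTPase that brings mTORC1 to lysosomes, had signals of 1250.2 and 142.4, 8.78-fold lower, by 1 kept probe set. Sesn3 was next at -0.90, and Wdr59 (0.69) and Castor2 (0.48) were highest. The list's median was 0.15. Among 6 relatives of Chac1, Trib3 and the ATF factors, Ggct, another enzyme of glutathione breakdown, was 2.39-fold lower by 1 kept probe set with a cross-matching name, without which 0 of the list were down. Atf6 stood at -0.46, while Atf2 (0.19) and Chac2 (0.02) were highest. Of the genes named from the lists, Eif2ak1, Slc38a1, Fgfr3, Yme1l1, Castor2, Xbp1, Atf6 and Atf2 also had probe sets that went both ways. So did Dele1, Gcn1 and Afg3l2.

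Of the 133 pathway genes that were measured and had a promoter window, 13 held the core element, or 9.77%. The share was 2.79% of all 9490 measured genes with a window. The lists were drawn up to include targets of ATF4, so setting these shares side by side is no test. Of these 13, Atf3, Nupr1 and Slc7a11 were down and Got1 was up. The others lay within 2-fold, among them the synthetase genes Aars, Gars, Iars, Tars and Yars. Atf3, Nupr1 and Slc7a11 passed the filter through their wild-type signal and had to be lower, the last 2 by 2-fold or more. Over all measured genes, the median log2 ratio was -0.05 for the 265 with the element and -0.02 for the 9225 without it, and 11.3% and 8.30% of them were down.

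**Figure D4:**
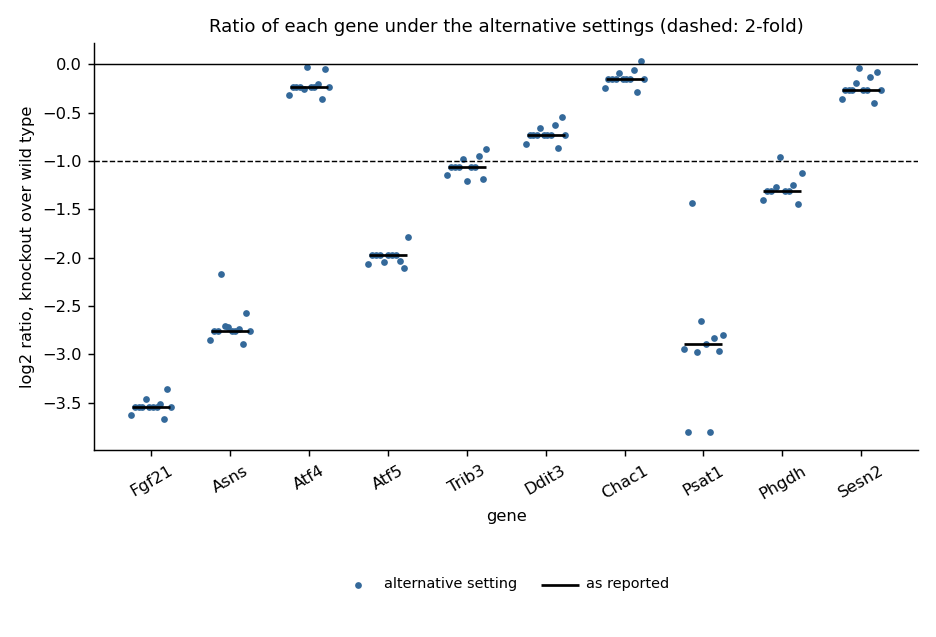
Log2 ratio of knockout over wild type for each of the 10 genes as reported (black bar) and under each alternative setting that gave a value (blue points), with a dashed line at 2-fold. Fgf21, Asns, Atf5 and Psat1 stay past 2-fold in every setting that measured them, Trib3 and Phgdh lie on both sides of the line, and Chac1 crosses 0 in 1 setting.

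Of the 10 genes, 4 were read only by probe sets whose names end in _s_at, _x_at or _a_at, an ending that can mark probes that match several transcripts. These were Atf5, Trib3, Psat1 and Phgdh. Without such probe sets 6 of the 10 genes were measured, and 2 of them, Fgf21 and Asns, were down. In that setting 8.61% of all 10012 measured genes were down and 4.16% up.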

How the data were processed

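Total RNA from liver was turned into biotin-labelled cRNA, 250 ng per array, per the labels' protocols. The authors deposited linear intensity values per probe set, made with MAS5 per the submitters' processing notes, with settings, detection calls and genome build not given in the sources here. Both arrays had a mean of 500.004 once 2% was trimmed at each end, so they had been scaled before deposit.

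Probe sets were named through the platform annotation, with symbols updated from RefSeq (GRCm38.p6): 34945 named 1 gene, 932 several and 9160 none, beside 64 controls. Of the first, 19800 passed the filter. The 10 genes and the gene lists were chosen with earlier results of these data known. Named from each list were its 2 highest and 2 lowest genes, and as genes of like pattern the 5 nearest to Fgf21; a few others are marked in the text. The lowest and highest genes between Atf5 and Fgf21, and the genes with a promoter match, were named after their values were seen. So were the cell markers named and the genes named for a further probe set. Analysis used Python 3.11.15, pandas 2.3.3 and statsmodels 0.14.6, and the steps were tested on simulated data. Alternatives were other scalings, floors, filters, probe-set rules and size rules. Depth has no meaning for arrays; their number, 1 per genotype, limits the precision.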

Additional observations from a re-analysis of the deposited data

How the results depend on the processing

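No paired analysis was possible because each genotype had 1 array, and for the same reason none could be left out. Of 114 member ratios under alternatives, 110 moved by less than the SD between probe sets. The other 4 were Asns with the floor at the 60th percentile (-2.17) and Psat1 with no floor or the floor at the 20th percentile (-3.80) and with it at the 60th (-1.44), where the floor sets the bound. No called ratio changed sign. For a gene with 1 kept probe set above all floors used, other floors, filters and probe-set rules cannot move the ratio. The count of 110 was thus partly fixed in advance. The count of 6 lower members became 2 without cross-matching probe sets, which leaves 6 members measured, and ranged from 4 to 7 elsewhere. The share of all genes that were lower was 8.61% in that setting and ranged from 3.5% to 17.4% elsewhere. Over all genes, the 1048 lower and 448 higher became 564 and 210 with the filter at the 70th percentile, 2038 and 1296 at 1.5-fold and 409 and 102 at 3-fold. The higher genes numbered 250 with the floor at the 60th percentile and 713 under poly-A scaling, where lower genes made up 52.0% of those past 2-fold against 70.1% as reported, 77.9% after median centring and 80.6% on the hybridisation controls. Over the pathway lists, the 12 lower genes became 7 with the filter at the 70th percentile and 31 at 1.5-fold, and the 7 higher became 15 at 1.5-fold and 1 at 3-fold. The filter and size rules change which genes can be counted; for the scaling the cause was not tested. Signals near the floor limit Psat1, Phgdh and the second Asns probe set.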
